A study of Homo sapiens with 24 samples.

Results

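The genes described here are those of clathrin-mediated endocytosis together with HIP1 and its paralogue HIP1R. They are 33 genes of the 18852 that the probe annotation names with a single symbol, and 62 of the 48803 probes on the arrays carry one of these symbols. The list was drawn up by function, though with earlier results of these data known. It holds coat (3 genes), AP-2 adaptor (5), the HIP1 family (2) and scaffold and cargo adaptors (9). The rest are BAR and F-BAR proteins (4), dynamins (2), uncoating factors (3) and endosomal RAB GTPases (5).

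The arrays compare cells meant to carry extra HIP1 with cells that carry an empty vector, in a pair of human prostate lines, with 6 arrays labelled as biological replicates in each of 4 groups. PNT1a, a line of immortalised prostate epithelium, had been transfected stably with HIP1 or with empty vector, and both PNT1a lines were kept in 0.8 mg/ml G418, the drug that selects for the construct. LNCaP, a prostate cancer line, had been transfected transiently with HIP1 or with empty vector and was sampled on day 4 after transfection. All cells grew in the same serum-supplemented medium. Neither the promoter of the construct nor whether a stable line was 1 clone or a pool is stated in the labels. A difference between separately derived stable lines therefore cannot be told apart from a difference that goes with HIP1. Nothing in the labels says whether replicates came from separate cultures, so p-values measure the spread between these samples, which may be technical. The names HIP1-labelled and vector follow the labels alone, since the HIP1 probe did not separate these groups.

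Clathrin-mediated endocytosis takes receptors and their ligands into the cell. AP-2 and companion adaptors pick cargo and bind phosphoinositides of the plasma membrane, clathrin heavy and light chains assemble over them into a cage, BAR-domain proteins bend the membrane, dynamin cuts the neck, and synaptojanin with the auxilins strips the coat. RAB5 proteins then act at early endosomes, RAB7A on the way to lysosomes and RAB11A in recycling. HIP1 and HIP1R bind phosphoinositides through an ANTH domain, clathrin light chains through a coiled coil and, through a talin-like domain, actin. HIP1 is known to be raised in part of prostate cancers, and the uptake and recycling of growth factor receptors is the setting in which it has been studied most.

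To place the genes in the genome, the 250 bases before the first listed transcript start are shown for HIP1, the gene of the construct, for CLTA, which had the largest fall of the set in PNT1a, and for DAB2, DNM1 and RAB5A, which were above background in a single line. Sequences are from RefSeq on GRCh38.p14, on the strand of the gene, upstream of the annotated transcript. Capitals mark GC boxes (GGGCGG or, on the other strand, CCGCCC, overlapping matches counted) and CCAAT boxes (CCAAT or ATTGG). The windows are chr7:75738942-75739191 on the minus strand for HIP1, chr9:36190671-36190920 on the plus strand for CLTA, chr5:39424981-39425230 on the minus strand for DAB2, chr9:128203129-128203378 on the plus strand for DNM1 and chr3:19946847-19947096 on the plus strand for RAB5A.
HIP1: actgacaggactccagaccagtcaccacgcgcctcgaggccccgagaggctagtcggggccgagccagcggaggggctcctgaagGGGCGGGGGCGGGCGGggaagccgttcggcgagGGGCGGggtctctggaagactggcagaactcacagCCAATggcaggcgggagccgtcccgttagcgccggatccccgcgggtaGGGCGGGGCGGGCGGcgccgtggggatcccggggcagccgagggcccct
CLTA: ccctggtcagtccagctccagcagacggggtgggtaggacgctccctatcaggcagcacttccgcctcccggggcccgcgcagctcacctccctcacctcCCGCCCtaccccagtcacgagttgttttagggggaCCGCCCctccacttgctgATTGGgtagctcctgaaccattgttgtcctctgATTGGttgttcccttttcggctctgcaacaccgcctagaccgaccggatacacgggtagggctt
DAB2: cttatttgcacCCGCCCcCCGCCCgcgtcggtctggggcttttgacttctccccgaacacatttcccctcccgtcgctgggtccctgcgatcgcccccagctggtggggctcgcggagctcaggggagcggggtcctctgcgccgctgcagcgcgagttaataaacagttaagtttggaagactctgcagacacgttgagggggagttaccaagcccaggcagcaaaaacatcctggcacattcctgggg
DNM1: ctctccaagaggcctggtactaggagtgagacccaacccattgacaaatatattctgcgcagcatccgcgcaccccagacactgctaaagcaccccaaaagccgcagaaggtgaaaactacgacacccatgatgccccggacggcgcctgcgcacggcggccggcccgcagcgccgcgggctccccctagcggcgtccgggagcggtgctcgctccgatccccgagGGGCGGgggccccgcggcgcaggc
RAB5A: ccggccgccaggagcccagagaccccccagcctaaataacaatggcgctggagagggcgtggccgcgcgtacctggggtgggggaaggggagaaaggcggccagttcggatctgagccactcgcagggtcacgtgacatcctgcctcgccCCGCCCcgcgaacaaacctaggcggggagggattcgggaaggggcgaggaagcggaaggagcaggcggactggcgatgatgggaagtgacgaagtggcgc
The HIP1 window held 7 GC boxes and 1 CCAAT box, and that of CLTA 2 of each. The windows of DNM1 and RAB5A held 1 GC box, that of DAB2 2, and none of these 3 a CCAAT box. Over all 45 listed starts of the 33 genes, 77.8% had a GC box, against 63.6% of the 11565 starts of genes with a tested probe and 42.6% of all 35097 starts in the table. A CCAAT box was found at 33.3%, 33.5% and 32% of them. The letters TATAAA or TTTATA were at 0 of the 45 starts, against 5.98% and 10.7%. The median window of the set held 23 CpG dinucleotides and 67.6% G or C, against 20 and 64.4% for genes with a tested probe. These matches describe the windows and say nothing of which factors bind there.

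A probe counted as measured in a line when its log2 intensity lay above 6.97 on at least 6 of the 12 arrays of that line. That level is the most frequent value of the table plus 3 SDs of the values below it. Of the 62 probes, 36 passed in at least 1 line and 26 in neither, which left 25 genes in PNT1a, 24 in LNCaP, 23 in both and 26 in either. A gene was counted by its brightest tested probe. The 7 genes measured in neither line were CLTC (the clathrin heavy chain), HIP1R, ITSN2 (a scaffold), FCHO2 (an early F-BAR protein), SYNJ1 (a phosphoinositide phosphatase), and AMPH and DNAJC6, which are best known from neurons. A probe that is not above background does not show that the mRNA is missing. The probes nearest to the rule in PNT1a were the second probes of ITSN1 (above the level on 7 arrays) and DNM2 (7 arrays) on the inside, and on the outside SYNJ1, above it on 3 vector and 2 HIP1-labelled arrays (means 6.95 and 6.88).

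**Figure D1:**
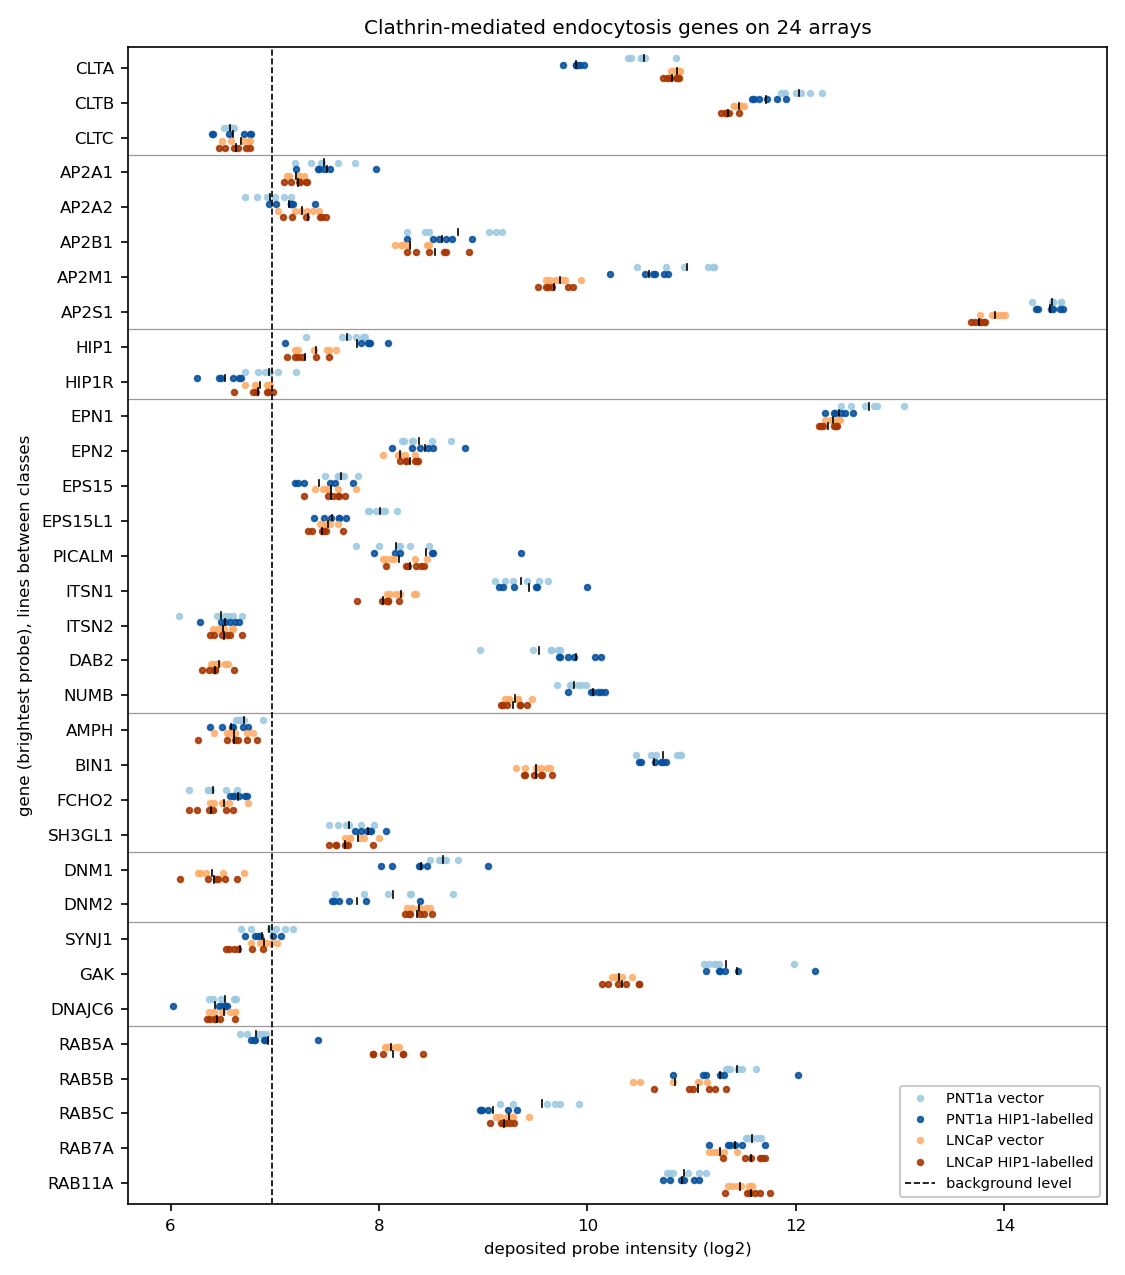
Log2 intensity (horizontal axis) of the brightest probe of each of the 33 genes (vertical axis, grouped by class) on each of 24 arrays. Points are arrays, short black bars are group means and the dashed line is the background level of 6.97; DAB2 and DNM1 lie above it in PNT1a alone and RAB5A in LNCaP, with 1 PNT1a array above it.

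Each line was checked against markers. All 5 luminal prostate markers were above background on every LNCaP array of both groups, TMPRSS2 at 11.46 with vector, while TMPRSS2 was at 6.33 in PNT1a vector arrays, below background. CDH1, which encodes E-cadherin, was below background on all 12 PNT1a arrays (6.50 with vector) and at 11.47 in LNCaP vector arrays, although KRT8, an epithelial keratin, was at 11.15 in PNT1a. Of 6 fibroblast and stromal markers, PDGFRB and COL1A1 were above background in PNT1a and the other 4 below it on all arrays. Of 4 leukocyte markers, CD14 and CD68 were above it, and PTPRC and CD3E below it on all arrays. In PNT1a, array 6 of either group resembled its own group least, with a mean correlation of 0.942 (vector) and 0.919 (HIP1-labelled), where all other arrays had 0.973 to 0.994. PNT1a vector array 6 was the lowest or highest of its group for 18 of the 25 genes and HIP1-labelled array 6 for 21. Calls that change when these arrays are left out are given beside the results.

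HIP1, the gene of the construct, was measured by a single probe (ILMN_1701403), and its signal did not separate the groups in either line. In PNT1a the vector arrays ran from 7.30 through a median of 7.74 to 7.86 and the HIP1-labelled arrays from 7.10 through 7.90 to 8.09. The HIP1-labelled array 6 was the lowest of all 12 and the groups overlapped. The difference was 0.10 (log2), with a 95% interval of -0.23 to 0.43, which bounds the rise at 1.35-fold (exact permutation p = 0.543, two-sided, over 924 splits; limma adjusted p = 0.703). In LNCaP the vector arrays ran from 7.19 through 7.44 to 7.59 and the HIP1-labelled arrays from 7.11 through 7.25 to 7.52. These groups overlapped as well, with a difference of -0.11 and an interval of -0.29 to 0.06 (exact permutation p = 0.232). Without PNT1a HIP1-labelled array 6 the PNT1a difference was 0.24 (exact permutation p = 0.0195), and without both arrays numbered 6 it was 0.16 (exact permutation p = 0.0238). Without PNT1a vector array 6 alone it was 0.02 (exact permutation p = 0.948). The limma adjusted p in PNT1a was 0.0603 or above over all alternatives. Whether this probe could detect the HIP1 construct is unknown, so its signal does not settle what the labels say.

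HIP1R, the paralogue that ties coated pits to actin, was below the level by its group means throughout. Its brighter probe (ILMN_2396148) ran from 6.71 through 6.93 to 7.21 in PNT1a vector arrays and from 6.26 through 6.54 to 6.68 in HIP1-labelled ones, which did not overlap. In LNCaP the means were 6.86 and 6.84. The probe lay above the level on 2 PNT1a and 1 LNCaP arrays, so no fold change is given. Its second probe had means of 6.54 and 6.50 in PNT1a.

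**Figure D2:**
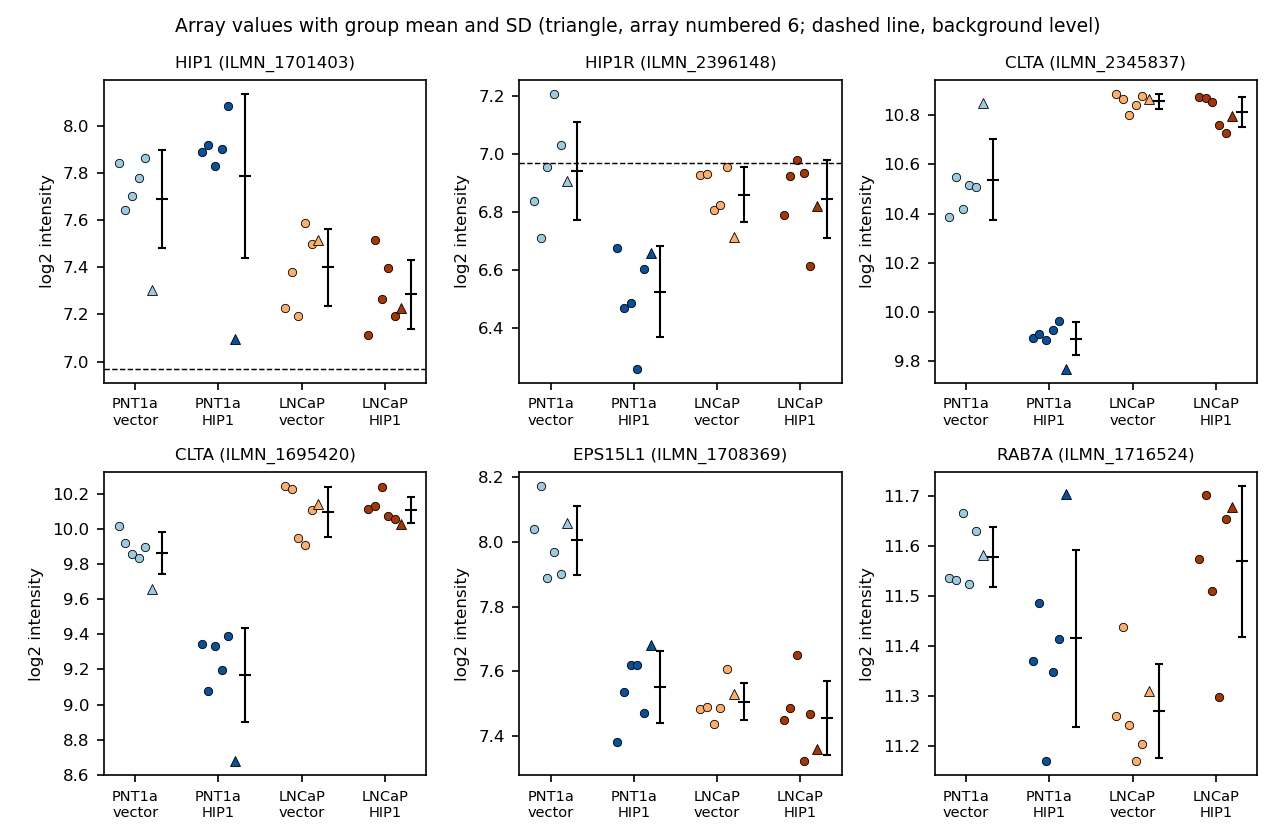
Log2 intensity (vertical axis) of 6 probes of HIP1, HIP1R, CLTA, EPS15L1 and RAB7A in the 4 groups. Points are arrays, triangles are the arrays numbered 6, black bars are group mean and SD (6 arrays) and the dashed line, where it falls in range, is the background level; both CLTA probes and EPS15L1 are separated between the PNT1a groups, while HIP1 is not.

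In PNT1a, 5 of the 25 measured genes fell in HIP1-labelled arrays and 0 rose. The genes that fell were both clathrin light chains (CLTA and CLTB), the scaffold EPS15L1, the epsin EPN1 and the early endosomal GTPase RAB5C. That is 20% of the genes, while 27.5% of the 12234 probes tested in PNT1a were called, 13.4% lower and 14.1% higher. The share of the set is near that of all probes and is not a result about endocytosis genes. Its median log2 fold change was -0.09, with 0.00 over all probes tested. At an unadjusted limma p under 0.05 there were 8 genes, 2 of them higher (DAB2 and NUMB), and 4652 of the 12234 probes. For 2 genes, CLTA and EPS15L1, all HIP1-labelled arrays lay below all vector arrays, and groups did not overlap for 15.4% of all probes. Means of other markers were also set side by side in the PNT1a groups, without a test. Among epithelial markers KRT8 was at 11.15 with vector and 10.37 in HIP1-labelled arrays, EPCAM at 7.46 and 6.99 and KRT18 at 7.37 and 7.77, with CDH1 below background in both. Among leukocyte markers CD68 was at 10.43 and 9.71 and CD14 at 9.53 and 10.06. Among neuronal markers SNAP25 was at 7.01 and 8.32, TUBB3 at 9.29 and 8.17 and STMN2 at 6.998 and 7.06. Of the markers listed here, SNAP25 and TUBB3 separated the groups fully, and the arrays of the others overlapped. Their part in the falls was not tested.

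Among the coat genes, CLTA encodes clathrin light chain A, which binds the heavy chain and HIP1. Its brighter probe (ILMN_2345837) ran from 10.38 through 10.51 to 10.85 in vector arrays and from 9.77 through 9.90 to 9.96 in HIP1-labelled arrays. The groups did not overlap, and CLTA fell by 0.65 on the log2 scale (SE 0.08, limma adjusted p = 7.43e-05). The second CLTA probe (ILMN_1695420) ran from 9.66 through 9.88 to 10.02 and from 8.68 through 9.26 to 9.39, again without overlap, a fall of 0.69 (SE 0.12, adjusted p = 0.000615). CLTB, the other light chain, ran from 11.86 through 12.03 to 12.25 with vector and from 11.57 through 11.68 to 11.91 in HIP1-labelled arrays, with overlap at the edges. It fell by 0.32 (SE 0.09, adjusted p = 0.0158).

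None of the 5 AP-2 subunit genes was called in PNT1a by limma, 1 of them (AP2M1) having an unadjusted p under 0.05. AP2M1, the subunit that reads tyrosine-based sorting signals, ran from 10.48 through 11.04 to 11.22 with vector and from 10.21 through 10.64 to 10.77 in HIP1-labelled arrays. Its log2 fold change was -0.36 (SE 0.14, adjusted p = 0.0665, and 0.0105 without vector array 6, from 0.000595 to 0.142 over all alternatives), while its second probe gave -0.10. The other subunits had differences of 0.03 (AP2A1), 0.18 (AP2A2, whose vector mean lay below the level), -0.16 (AP2B1) and -0.02 (AP2S1).

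EPS15L1 was the clearest difference among the 8 measured scaffold and cargo adaptors. This relative of EPS15 holds AP-2 and epsins together at the pit. It ran from 7.89 through 8.01 to 8.17 with vector and from 7.38 through 7.58 to 7.68 in HIP1-labelled arrays. The groups did not overlap, and it fell by 0.45 (SE 0.08, adjusted p = 0.000746). EPN1, which binds ubiquitinated cargo and bends membrane, ran from 12.44 through 12.70 to 13.04 and from 12.28 through 12.41 to 12.55. It fell by 0.29 (SE 0.10, adjusted p = 0.0468, from 0.00385 to 0.0968 over the alternatives), and it no longer passed without any 1 of 9 arrays (vector 3, 4, 5 or 6, or HIP1-labelled 1 to 5).

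The cargo adaptors DAB2 and NUMB, which recognise NPXY-type signals, had positive differences that did not pass. DAB2 ran from 8.97 through 9.65 to 9.73 with vector and from 9.72 through 9.85 to 10.13 in HIP1-labelled arrays, with vector array 6 the lowest. Its log2 fold change was 0.36 (SE 0.13, adjusted p = 0.0567, from 0.00686 to 0.115 over all alternatives), and that of its second probe 0.42 (adjusted p = 0.0818). NUMB differed by 0.18 (adjusted p = 0.114, from 0.0439 to 0.204 over all alternatives). It passed without HIP1-labelled array 4 (adjusted p = 0.0439). The remaining adaptors, PICALM (0.29), ITSN1 (0.08), EPN2 (0.06) and EPS15 (-0.21), all overlapped between groups.

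The BAR-domain genes BIN1 (-0.09) and SH3GL1 (0.18), the dynamins DNM1 (-0.21) and DNM2 (-0.35), and the uncoating chaperone partner GAK (0.11) were not called in PNT1a. RAB5C, 1 of the 3 RAB5 paralogues, ran from 9.16 through 9.65 to 9.92 with vector and from 8.97 through 9.02 to 9.32 in HIP1-labelled arrays, which overlapped. It fell by 0.48 (SE 0.13, adjusted p = 0.0137), while its second probe gave -0.21 (adjusted p = 0.567). RAB5B (-0.16), RAB7A (-0.16) and RAB11A (-0.02) were not called, and RAB5A was below background.

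The number of falls in PNT1a depended on the arrays numbered 6. Without both of them 10 genes fell and 0 rose, on a background of 45.1% called and 21.8% lower. The added genes were AP2M1 (-0.38), DNM2 (-0.36), RAB5B (-0.32), DNM1 (-0.31) and RAB7A (-0.22), and CLTA then fell by 0.56 (limma adjusted p = 5.08e-06). The second DAB2 probe rose (0.24, adjusted p = 0.0383). With only HIP1-labelled array 6 left out 9 genes fell, on a background of 38.3% called and 18.2% lower.

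In LNCaP, 1 of the 24 measured genes was called. RAB7A, the GTPase of late endosomes, rose, and 0 genes fell. That is 4.17% of the genes, where 7.32% of the 12017 probes tested in LNCaP were called, 3.15% higher and 4.18% lower. The median log2 fold change of the set was -0.01 and that of all probes 0.01. RAB7A ran from 11.17 through 11.25 to 11.44 with vector and from 11.30 through 11.61 to 11.70 in HIP1-labelled arrays, which overlapped. Its log2 fold change was 0.30 (SE 0.07, limma adjusted p = 0.0159), with an adjusted p from 0.00271 to 0.0486 over the arrays left out in turn and all alternatives. For 0 of the 24 genes did the groups separate fully, as they did for 4.04% of all probes. Of the 5 luminal markers, TMPRSS2 was at 11.46 with vector and 12.03 in HIP1-labelled arrays and FOLH1 at 9.41 and 9.84, both without overlap. The second FOLH1 probe was at 7.95 and 8.18, with overlap. KLK2 was at 8.07 and 8.52, KLK3 at 7.93 and 8.13 and HOXB13 at 8.95 and 8.91, all with overlap. Their part in the rise of RAB7A was not tested.

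The coat in LNCaP had differences of -0.04 for CLTA (95% interval -0.16 to 0.07) and -0.11 for CLTB (-0.23 to 0.01). The interval for CLTA leaves out a fall of the size seen in PNT1a. At an unadjusted limma p under 0.05 there were 4 genes, and 2605 of the 12017 probes. Besides RAB7A they were AP2B1, the beta subunit of AP-2 (0.24, adjusted p = 0.116), AP2S1, its sigma subunit (-0.16, adjusted p = 0.122), and the scaffold ITSN1 (-0.16, adjusted p = 0.197). AP2B1 passed only without HIP1-labelled array 4 (adjusted p = 0.0427), an array that was lowest or highest of its group for 14 of the 24 genes. EPS15L1 (-0.05), EPN1 (-0.05), RAB5C (-0.05) and RAB5A (0.02) were not called in LNCaP.

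**Figure D3:**
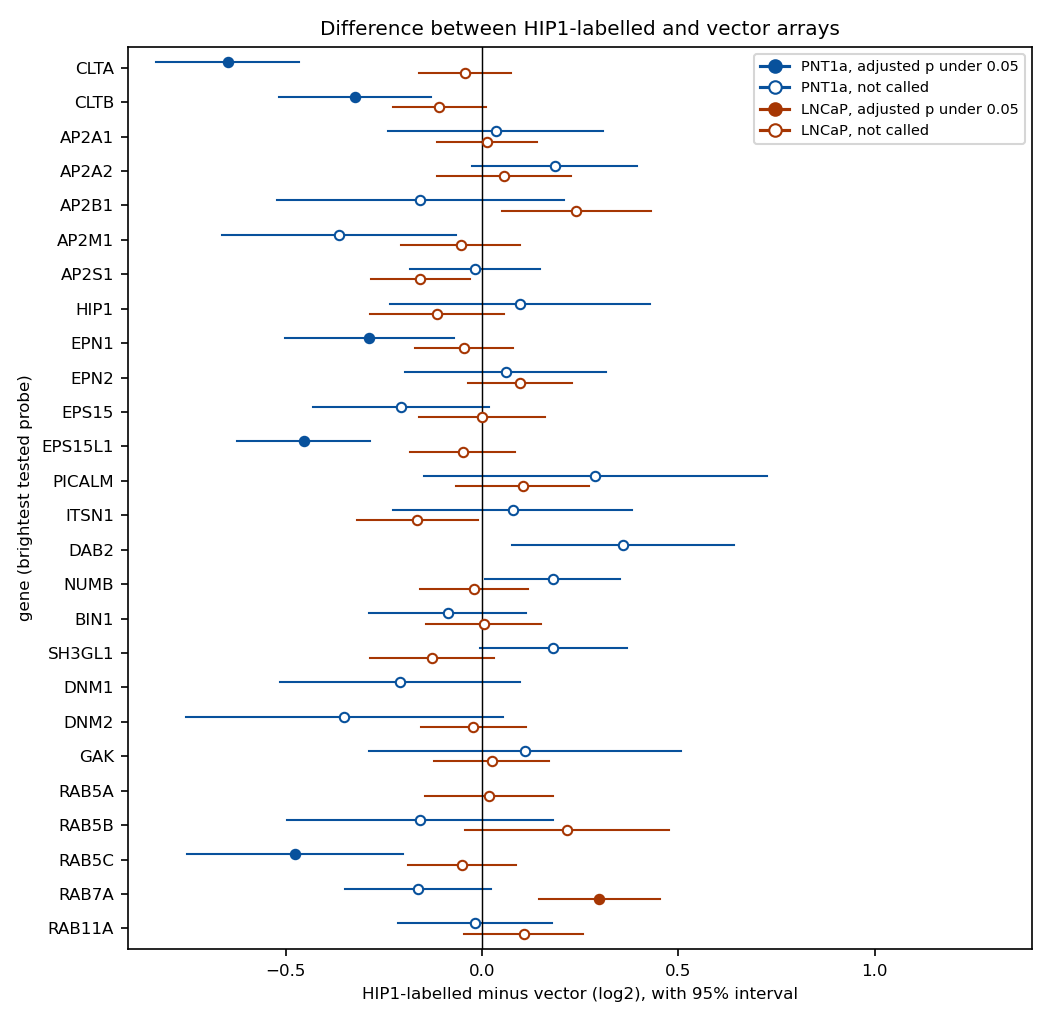
Log2 difference between HIP1-labelled and vector arrays (horizontal axis) with its 95% interval for each measured gene (vertical axis), PNT1a in blue and LNCaP in orange-brown. Filled points had an adjusted p under 0.05; 5 PNT1a genes lie to the left of 0 and RAB7A in LNCaP to the right.

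The change in LNCaP was then set against the change in PNT1a in a fit of all 24 arrays. This sets a transient transfection against stable lines kept in G418, so line, kind of transfection and drug cannot be told apart. Of the 23 genes measured in both lines, 4 differed, all with a larger value in LNCaP, which is 17.4% of them where 22.2% of the 10309 probes were called. CLTA differed by 0.60 (SE 0.09, limma adjusted p = 2.66e-05), and its second probe by 0.70. EPS15L1 differed by 0.40 (SE 0.10, adjusted p = 0.00291). Both had a fall in PNT1a and a value near 0 in LNCaP. RAB7A differed by 0.46 (SE 0.11, adjusted p = 0.00374), with -0.16 in PNT1a and 0.30 in LNCaP. RAB5C differed by 0.42 (SE 0.14, adjusted p = 0.0343), which did not pass without any 1 of 13 arrays, PNT1a vector 3 to 6 and HIP1-labelled 1, 2, 4 and 5 and LNCaP vector 3 and 6 and HIP1-labelled 1, 2 and 6 (adjusted p up to 0.0613). For CLTB (0.22), EPN1 (0.24) and HIP1 (-0.21) the difference between lines did not pass (adjusted p = 0.12, 0.124 and 0.452). EPN1 passed without PNT1a vector array 1 (adjusted p = 0.0457, from 0.0263 to 0.252 over all alternatives). SH3GL1 had a smaller value in LNCaP and fell just short (-0.31, SE 0.11, limma adjusted p = 0.0541). It passed without PNT1a vector 1 or 2, PNT1a HIP1-labelled 3 or 6, LNCaP vector 2 or LNCaP HIP1-labelled 6 (adjusted p down to 0.0196). Without PNT1a HIP1-labelled array 6 a further 5 genes passed. These were RAB5B (0.52, adjusted p = 0.0259), DNM2 (0.45, 0.0485), CLTB (0.25, 0.0408), SH3GL1 (-0.32, 0.0367) and HIP1 (-0.35, 0.0453, from 0.0261 to 0.69 over all alternatives), where 31.4% of all probes were called. Without PNT1a vector array 6 AP2M1 passed (0.41, adjusted p = 0.0321), with 24.5% of all probes called.

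The vector arrays of the lines differed far more than the groups within each line. PNT1a vector cells were stably transfected and kept in G418, while LNCaP vector cells were transiently transfected. Line, kind of transfection and drug therefore cannot be told apart in what follows. Between LNCaP vector and PNT1a vector arrays, 21 of the 26 genes measured in either line were called, 4 higher and 17 lower in LNCaP. That is 80.8%, where 76.5% of the 13942 probes were called, 39.6% higher and 36.9% lower. The median log2 difference of the set was -0.33, and that of all probes 0.02. Groups did not overlap for 15 of the 26 genes, as for 58.3% of all probes. DAB2 and DNM1 passed the filter in PNT1a only and RAB5A in LNCaP only. The filter thus selected these genes for a difference, and their calls are not a test of it. Over the 23 genes measured in both lines, a restriction chosen after the values were seen, 3 were higher, 15 lower and 5 not called, where 71.7% of such probes were called. This comparison and the PNT1a comparison share the PNT1a vector arrays, so their values are not independent.

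DAB2, the cargo adaptor for receptors of the LDL family and integrins, was the largest difference. PNT1a vector arrays ran from 8.97 through 9.65 to 9.73, and LNCaP vector arrays from 6.39 through 6.45 to 6.55, all below background. DAB2 was at least 5.92-fold higher in PNT1a, and its second probe at least 5.29-fold. NUMB, another adaptor of this kind, ran from 9.71 through 9.87 to 9.98 in PNT1a and from 9.21 through 9.29 to 9.47 in LNCaP, without overlap. It was lower in LNCaP (-0.56, SE 0.07, adjusted p = 2.22e-06), with -0.55 by its second probe.

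Of the 2 dynamins, DNM1 passed the filter in PNT1a only, and so was selected for a difference, while DNM2 passed in both lines. DNM1, the dynamin best known from neurons, ran from 8.48 through 8.61 to 8.76 in PNT1a vector arrays. In LNCaP it ran from 6.26 through 6.31 to 6.71, below background, and was at least 3.13-fold higher in PNT1a. The neuronal markers SYP and RBFOX3 were below background on all 24 arrays, SNAP25 was at 7.01 in PNT1a vector arrays and below background in LNCaP, and TUBB3 was at 9.29 and 8.88, and STMN2 at 6.998 and 7.06. DNM2, the ubiquitous dynamin, was at 8.14 ± 0.39 in PNT1a and 8.38 ± 0.08 in LNCaP (mean ± SD of 6), a difference of 0.25 that did not pass (adjusted p = 0.132). Without PNT1a vector array 6 it passed, at 0.36 (adjusted p = 0.00517).

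The light chains went opposite ways. CLTA ran from 10.80 through 10.87 to 10.89 in LNCaP vector arrays, higher than in PNT1a by 0.32 (SE 0.08, adjusted p = 0.00148), and the arrays overlapped only through PNT1a vector array 6. CLTB ran from 11.40 through 11.47 to 11.50, lower than in PNT1a by 0.58 on the log2 scale (log2 difference -0.58, SE 0.07, adjusted p = 2.94e-06), without overlap.

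Of the 5 AP-2 subunits, 4 were lower in LNCaP. AP2M1 was the most different, from 10.48 through 11.04 to 11.22 in PNT1a and from 9.60 through 9.72 to 9.93 in LNCaP, without overlap (log2 difference -1.22, SE 0.12, adjusted p = 1.56e-07; second probe -1.13). AP2S1, the sigma subunit, ran from 14.26 through 14.46 to 14.55 and from 13.77 through 13.93 to 14.00, without overlap (-0.54, adjusted p = 3.13e-06), while its second probe gave -0.33 and was not called (adjusted p = 0.121). AP2B1 (-0.46) and AP2A1 (-0.26) were also lower, with overlapping arrays. AP2A2, an alternative alpha subunit, was above background in LNCaP (mean 7.26) and just below it in PNT1a (6.95), and was at least 1.23-fold higher in LNCaP (adjusted p = 0.00516).

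Among the scaffolds, ITSN1, which links coated pits to dynamin and actin regulators, ran from 9.11 through 9.36 to 9.62 in PNT1a and from 8.08 through 8.18 to 8.36 in LNCaP (-1.16, SE 0.09, adjusted p = 1.44e-08). The groups did not overlap. EPS15L1 (-0.50) and EPN1 (-0.34) were lower in LNCaP without overlap, and HIP1 was lower by a value near the spread between arrays (-0.29, SE 0.10, adjusted p = 0.0178, groups overlapping). PICALM (0.04), EPS15 (-0.09) and EPN2 (-0.18) were not called.

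BIN1, amphiphysin 2, ran from 10.47 through 10.75 to 10.90 in PNT1a and from 9.31 through 9.53 to 9.64 in LNCaP (-1.22, SE 0.09, adjusted p = 5.06e-09), without overlap. GAK, the auxilin of most tissues, ran from 11.12 through 11.22 to 11.98 and from 10.24 through 10.28 to 10.43 (-1.02, SE 0.12, adjusted p = 1.61e-06), without overlap and with PNT1a vector array 6 the highest. SH3GL1, endophilin A2, did not differ detectably (0.08, adjusted p = 0.386).

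The RAB GTPases differed in both directions. RAB5A was below background on all PNT1a vector arrays (6.66 through 6.85 to 6.92). In LNCaP it ran from 8.06 through 8.10 to 8.19, at least 2.22-fold higher. Its paralogue RAB5B ran from 11.33 through 11.41 to 11.62 in PNT1a and from 10.44 through 10.94 to 11.15 in LNCaP, without overlap, and was lower in LNCaP (-0.59, SE 0.12, adjusted p = 0.000377). RAB5C was also lower (-0.32, adjusted p = 0.0221), but its second probe gave 0.15 and the call was lost without PNT1a vector array 4 (adjusted p = 0.0514). RAB11A, of recycling endosomes, ran from 10.77 through 10.89 to 11.13 in PNT1a and from 11.35 through 11.46 to 11.58 in LNCaP, higher by 0.54 (SE 0.08, adjusted p = 1.58e-05) without overlap. RAB7A was lower in LNCaP (-0.31, adjusted p = 0.000452), also without overlap.

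**Figure D4:**
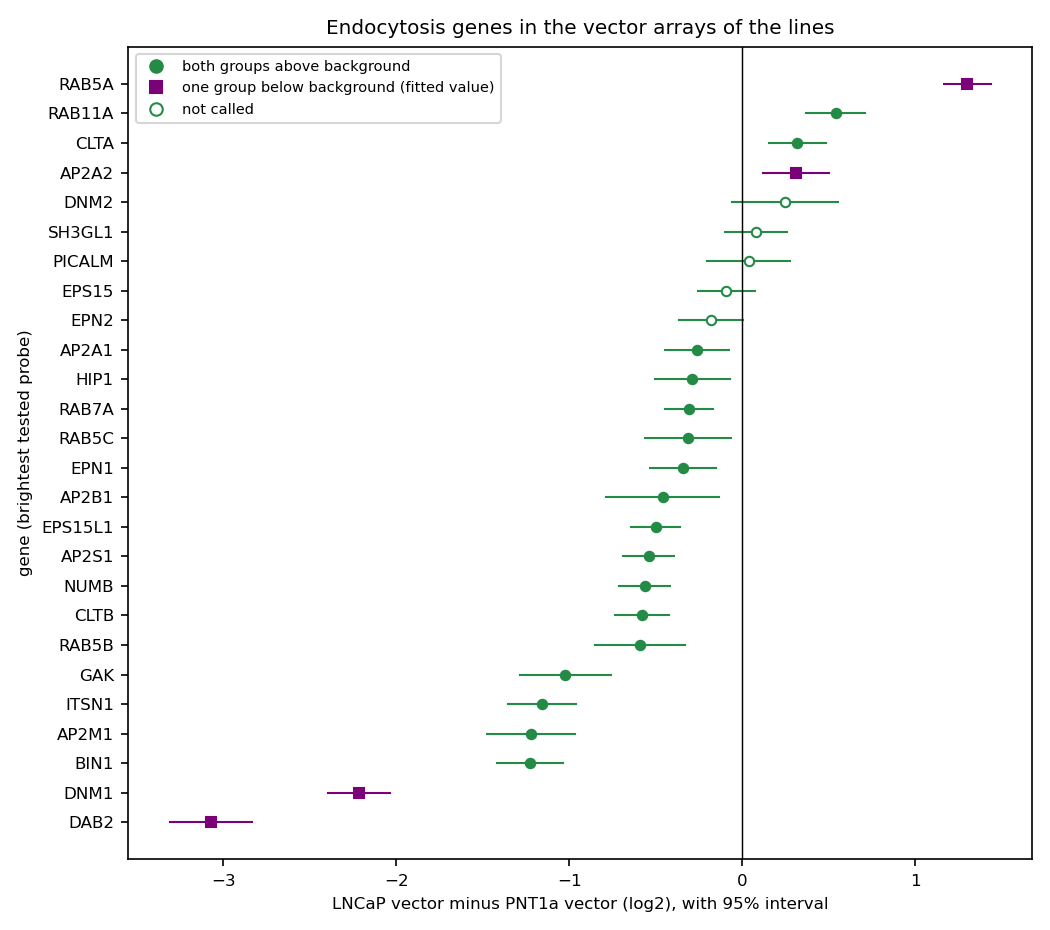
Log2 difference between LNCaP vector and PNT1a vector arrays (horizontal axis) with its 95% interval for the 26 genes measured in either line (vertical axis, sorted by value). Purple squares have a group mean below background, so that their fitted values are not folds; 17 called genes lie to the left of 0 and 4 to the right.

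A wider list of 114 genes that act beside these (other adaptors, curvature and scission proteins, kinases and phosphoinositide enzymes, actin regulators, endosomal factors, AP-1 and AP-3, and cargo receptors) was read with the same fits, and 109 of them had a named probe. In PNT1a 10 of 79 measured rose and 11 fell, which is 26.6% of them and near the 27.5% of all probes called. The largest falls were those of EHD1, an endosomal recycling ATPase (-1.27, adjusted p = 5.59e-07), AP1S2, the sigma subunit of AP-1 (-1.20), AP1M2, its epithelial mu subunit, which fell below background (at least 1.47-fold lower), and LRP8, a receptor of the LDL family (-0.76). The largest rises were those of the endocytic adaptor ARRB1, beta-arrestin 1 (0.86, with 0.33 and 0.28 by its other probes, of which the last did not pass), the actin regulator WASL (0.74), SH3KBP1 (0.70) and the transferrin receptor TFRC (0.69), a cargo of this route.

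In LNCaP 1 of 79 measured genes of that list rose, the F-BAR gene PACSIN2 (0.24), and 3 fell, together 5.06% where 7.32% of all probes were called. The genes that fell were TFRC (-0.40, adjusted p = 0.0086), AP1B1 of AP-1 (-0.31) and the actin-binding DBNL (-0.24). TFRC ran from 11.24 through 11.47 to 11.60 with vector and from 10.79 through 11.07 to 11.37 in HIP1-labelled arrays, and the LNCaP change differed from that in PNT1a by -1.10 (adjusted p = 0.000779). Of 73 genes measured in both lines, 11 had a higher and 7 a lower change in LNCaP, which is 24.7% and near the 22.2% of all probes.

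Between the lines 27 of 85 measured genes of the list were higher in LNCaP and 41 lower, which is 80% where 76.5% of all probes were called. Of these 85 genes, 73 were measured in both lines, and the rest passed the filter in LNCaP only or in PNT1a only. The filter thus selected the rest for a difference, and their calls are not a test of it. Calls among the 73 genes alone were not counted. MYO6, a myosin that works with DAB2 at coated pits, ran from 7.08 through 7.15 to 7.25 in PNT1a vector arrays and from 10.22 through 10.43 to 10.50 in LNCaP, a difference of 3.24 (adjusted p = 1.4e-15) in the direction opposite to that of DAB2. REPS2, an EPS15 homology protein, was at least 5.03-fold higher in LNCaP, RAB4A at least 2.58-fold and the epithelial epsin EPN3 at least 2.39-fold. EHD1 (-2.58), AP1M1 (-1.67) and EHD4 (-1.52) were lower in LNCaP, and AP1S2 was at least 3.96-fold lower.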

How the data were processed

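RNA of the 24 samples was hybridised to Illumina expression arrays. The deposited table holds log2 intensities of 48803 probes, per the file headers and the values, with 0 missing. Its sorted columns differ by at most 0.052, so the authors had brought the arrays to a common distribution. Their software is not named in the labels. A second deposited table holds raw intensity, per the file headers, with 0 filled detection p-values. Its 6 columns that match the labels served only to learn the scale, and 18 were not used. The background correction and detection filter assumed in the design could therefore not be run.

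The level of 6.97 is the mode of the log2 values (6.48) plus 3 SDs of the values below it (0.163 each). Each array had 12110 to 12118 probes above it. The number of arrays limits the precision. Symbols came from the probe annotation (28098 probes with 1, 13 with several, 20692 with none), and 28059 gene IDs matched RefSeq. Promoter entries were found for all 33 genes.

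Group means were fitted with limma 3.58.1 in R 4.3.3, each line alone, since spreads differ (median SD 0.185 and 0.207 in PNT1a, 0.126 and 0.12 in LNCaP). The lines were compared over the 12 vector arrays, and changes between lines over 24. P-values are two-sided and adjusted by Benjamini-Hochberg over all probes tested, with calls at 0.05. Where a group mean lay below the level, the level replaced it and the fold is given as "at least". On simulated data, with known changes of 0.5, 1 and 2 planted in some probes, 64.2%, 91.0% and 100% of the planted probes were recovered in PNT1a (12234 probes run, 4 false of 174 calls), 97.0%, 100% and 100% in LNCaP (12017 run, 11 of 209) and 68.7%, 94.0% and 100% between lines (13942 run, 13 of 188). The simulated noise was normal and independent between probes and arrays. In the data the PNT1a arrays numbered 6 shared deviations (residual correlation 0.70), so these rates may not hold for them.

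The genes and lists were chosen with earlier results of these data known. All 33 genes are named, with the lowest, median and highest array for the main results, and up to 4 called genes in each direction of the wider list. Alternatives were the replicate block, other filters and normalizations, array weights, a fit of all arrays, the most significant probe, and arrays left out. Same-numbered arrays of vector and HIP1-labelled groups had residual correlations of -0.04 to 0.70 in PNT1a and -0.24 to 0.32 in LNCaP, so the numbers were not taken as pairs.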

Additional observations from a re-analysis of the deposited data

Results flagged for a closer look

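A sample far from the other 5 of its group was found in 7 of 98 groups checked, where chance gives about 5% of groups, and 6 of the 7 were PNT1a arrays numbered 6. Vector array 6 was the lowest for AP2S1 (14.26) and DAB2 (8.973) and the highest for CLTA (10.85) and GAK (11.98). HIP1-labelled array 6 was the highest for GAK (12.19) and the lowest for HIP1 (7.096). HIP1-labelled array 4 of PNT1a was the lowest for NUMB (9.812). The part of these arrays in the results was not tested beyond leaving them out.

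The difference between the changes in LNCaP and PNT1a passed for CLTA (0.6044, limma adjusted p = 2.66e-05), EPS15L1 (0.4049, adjusted p = 0.00291), RAB7A (0.462, adjusted p = 0.00374) and RAB5C (0.4245, adjusted p = 0.0343). Over all alternatives the adjusted p for CLTA, EPS15L1 and RAB7A stayed at 0.00864 or below, and that of RAB5C reached 0.0748.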

How the results depend on the processing

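No result changed sign among those called. The replicate block left the count of higher genes in PNT1a at 0 and gave 6 falls for 5 (AP2M1 added), left the HIP1 difference at 0.09742 (exact permutation p = 0.2188), and turned no other count by over 1.5 times. With the block 36.4% of PNT1a probes were called. The PNT1a arrays numbered 6 were each other's best match (residual correlation 0.70). No other same-numbered vector and HIP1-labelled arrays were, and the numbers were not taken as pairs. In PNT1a a fit of all 24 arrays gave 2 rises (DAB2 and NUMB, on 37.8% called), and array weights gave 1 rise and 11 falls (on 49.5%). Without the arrays numbered 6 there were 10 falls. Leaving out single arrays gave 0 to 1 rises and 4 to 9 falls in PNT1a, and 1 to 2 rises and 0 falls in LNCaP. Between the lines, probes with a mean above 7.5 gave 2 higher genes for 4, because AP2A2 and RAB5A were then not tested, and single arrays left out gave 4 to 5 higher and 16 to 18 lower. For the difference of the changes, positive calls numbered 9 with array weights and 3 to 7 with single arrays left out. Negative calls, 0 over all arrays, numbered 1 with no filter (FCHO2, below background), 1 above 7.5, 2 with array weights, 1 without the arrays numbered 6 (SH3GL1) and 0 to 2 with single arrays left out. The HIP1 difference in PNT1a ran from 0.02027 to 0.2357 with single arrays left out and was 0.1585 without both arrays numbered 6, and in LNCaP it ran from -0.1611 to -0.0777. The limma adjusted p for HIP1 in PNT1a ran from 0.0603 to 0.938. The causes were not tested. LNCaP calls were fewer in the fit of all 24 arrays (1.96% of probes). What limits these data is the dim signal of 7 genes, the spread of PNT1a arrays, the single probe of HIP1 and the unknown origin of the stable lines.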
